A study of Mus musculus with 7 samples.

Results

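The insulin receptor, the insulin receptor substrates and the kinases and transcription factors below them were followed in the VMHvl, the ventrolateral region of the ventromedial hypothalamus, of ovariectomized female mice. The members were the rows whose symbol was Irs1, Irs2, Irs4, Insr, Pik3r1, Pik3ca, Akt1, Akt2, Foxo1 or Foxo3, and all 10 of them were found among the 48321 genes of the deposited count tables. All 10 also passed the filter on low counts, which kept 18387 genes for testing.

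The treated group was 4 mice given 1 µg of estradiol benzoate (EB, an ester of estradiol that releases the hormone) under the skin. The comparison group was 3 mice given vehicle by the same route. Tissue was taken 4 hours after the injection, and each library came from 1 mouse. All 7 mice had lost their ovaries, the main source of circulating estrogen, and all were of a mixed background with 129/Sv ancestry that traces back to a line with a floxed Esr1 allele. The labels give neither the animals' ages nor whether any mouse carried a Cre transgene. The region was cut out by hand, so each library mixes neurons, glia and vessel cells, and in such bulk tissue fewer cells of a type and less RNA per cell cannot be told apart.

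Insulin binds the insulin receptor, a tyrosine kinase, which phosphorylates the insulin receptor substrates (IRS proteins). These docking proteins recruit phosphoinositide 3-kinase (PI3K), whose lipid product PIP3 brings AKT kinases to the membrane. AKT phosphorylates FoxO transcription factors and so keeps them out of the nucleus. In the hypothalamus this route is known for its part in feeding, body weight and reproduction, and mice that lack Irs2 overeat and their females are infertile.

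Of the 10 transcripts, Irs2 rose with EB and none fell (edgeR's quasi-likelihood test, p adjusted by Benjamini-Hochberg over the 18387 genes, threshold 0.05). The other 9 did not pass. Across all tested genes 0.952% were called in either direction, 0.745% as higher and 0.207% as lower. At an unadjusted p under 0.05, 3 of the 10 passed, Irs2, Pik3r1 and Foxo3, against 9.04% of all tested genes. For the same 3 the groups did not overlap, against 9.1% of all tested genes. The 10 were chosen with earlier results of these data known, so these counts describe them and test nothing. DESeq2, which called 2.68% of the genes it tested, and limma-voom, which called 0.816%, called Irs2 and no other member. The median log2 change of the 10 was 0.05, beside −0.01 for all tested genes, with 6 positive and 4 negative values.

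The promoter windows of the substrates are shown first, because 1 substrate responded and the other 2 members of that family did not, while their windows hold a common stretch. Each window runs from 250 bases before to 50 bases after the RefSeq start of the gene, is written 5′ to 3′ on the strand of the gene and comes from RefSeq on GRCm38.p6 (the assembly also named mm10). Capitals mark the E-box CACGTG, a site that basic helix-loop-helix factors bind, and the stretch TGTTTT, which resembles the core of FoxO binding sites. The windows lie at chr1:82291390-82291689 for Irs1, chr8:11008880-11009179 for Irs2 and chrX:141725168-141725467 for Irs4, all on the minus strand. The RefSeq start of Irs2 lies 471 bases upstream of the GENCODE start used for its position and exons, so the Irs2 window lies wholly upstream of the GENCODE gene. For Irs1 the RefSeq start lies 23 bases upstream and for Irs4 46 bases downstream of the GENCODE start.
Irs2: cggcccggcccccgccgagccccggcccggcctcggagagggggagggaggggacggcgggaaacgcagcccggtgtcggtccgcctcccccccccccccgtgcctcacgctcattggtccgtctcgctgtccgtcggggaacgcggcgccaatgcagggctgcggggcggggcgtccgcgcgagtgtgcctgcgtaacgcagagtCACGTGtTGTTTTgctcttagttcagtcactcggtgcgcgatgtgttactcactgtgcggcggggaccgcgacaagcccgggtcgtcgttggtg
Irs1: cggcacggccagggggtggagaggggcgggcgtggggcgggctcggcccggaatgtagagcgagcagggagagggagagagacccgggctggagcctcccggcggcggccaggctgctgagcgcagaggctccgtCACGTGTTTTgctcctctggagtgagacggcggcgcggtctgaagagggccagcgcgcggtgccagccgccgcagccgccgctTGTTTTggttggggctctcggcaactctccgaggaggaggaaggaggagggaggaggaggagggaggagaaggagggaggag
Irs4: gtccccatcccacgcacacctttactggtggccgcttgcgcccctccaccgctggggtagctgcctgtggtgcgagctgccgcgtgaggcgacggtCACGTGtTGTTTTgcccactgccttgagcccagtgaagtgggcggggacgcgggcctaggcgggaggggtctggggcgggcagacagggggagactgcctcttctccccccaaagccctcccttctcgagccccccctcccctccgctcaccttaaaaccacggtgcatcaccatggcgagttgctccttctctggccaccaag

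Counted from the first base of each window, the E-box began at base 207 in Irs2, base 136 in Irs1 and base 97 in Irs4. TGTTTT began at base 214 in Irs2 and base 104 in Irs4. In Irs1 it began at bases 140 and 219, and the first of these overlaps the E-box. The longest stretch common to the Irs2 and Irs4 windows was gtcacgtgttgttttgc, 17 bases that no other of the 32851 mouse promoter windows in the table held. All 3 substrate windows shared gtcacgtgtt, which 25 windows held. An E-box followed on the same strand by TGTTTT starting within 10 bases was present in 14 of 32851 windows (0.0426%). These were the 3 substrates and 10 other genes, and none of the other members with a window. These letters were searched after the windows had been read, so the counts describe the windows and test nothing.

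A fixed set of motifs was searched on both strands of the same windows. The Irs2 window held 1 GC box GGGCGG, the letters bound by Sp factors, which 35.7% of all windows hold. It held neither the letters GGTCA of 1 arm of an estrogen response element (40.5% of all windows) nor the full palindromic estrogen response element (0.07%). TGACGTCA (1.79%), TGACG (20.8%), which forms part of it, and the FoxO core TGTTTAC (3.65%) were not among its letters either. The Irs4 window held 1 GGTCA, beginning at base 94 and overlapping the shared stretch, and 2 GC boxes. The Irs1 window held 2 GC boxes and 1 TGACG, which began at base 133 on the opposite strand and overlapped the E-box. The E-box alone occurred in 7.15% of windows and TGTTTT in 22.1%. The windows were 72.0% G and C in Irs2, 71.3% in Irs1 and 67.0% in Irs4, against a mean of 53.8%. A match or its lack in 300 bases says nothing about binding. Of the 10 members, 9 had a window in the table, and Insr did not.

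Insr encodes the insulin receptor itself. It measured 116, 111, 108 and 118 CPM (reads scaled to library size, with trimmed mean of M-values factors) in the EB libraries, against 119, 123 and 105 CPM in the vehicle libraries. The groups overlapped, and the means were 113 ± 4.70 CPM with EB (SD, n = 4) and 116 ± 9.70 CPM with vehicle (SD, n = 3). The log2 fold change was −0.04 ± 0.08 (SE), and the 95% interval of the fold change ran from 0.871 to 1.09. Igf1r, the related receptor for insulin-like growth factors, averaged 110 ± 10.8 CPM with EB and 102 ± 16.4 CPM with vehicle and was not called either.

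Irs2 encodes the substrate whose loss in mice disturbs both glucose control and fertility. It spans 8:10984681-11008458 on the minus strand of GRCm38 (ENSMUSG00000038894.7), and reads over its 2 exons were counted. Its level was 326, 286.4, 317.5 and 326.7 CPM in EB 1 to EB 4, against 136.2, 141.2 and 143.0 CPM in vehicle 1 to vehicle 3. Every EB library lay at more than the highest vehicle value, with a wide gap between the groups and little spread within either. The means were 314 ± 19.0 CPM with EB (SD, n = 4) and 140 ± 3.51 CPM with vehicle (SD, n = 3). Irs2 rose 2.24-fold (log2 1.16 ± 0.07, SE), with a 95% interval of 2.03 to 2.48-fold and an adjusted p of 1.09e-06 from edgeR. By unadjusted p it ranked 1 of the 18387 genes tested. These levels rest on 9979, 9298, 7537 and 7939 reads in the EB libraries, against 3504, 4458 and 3247 reads in the vehicle libraries.

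**Figure D1:**
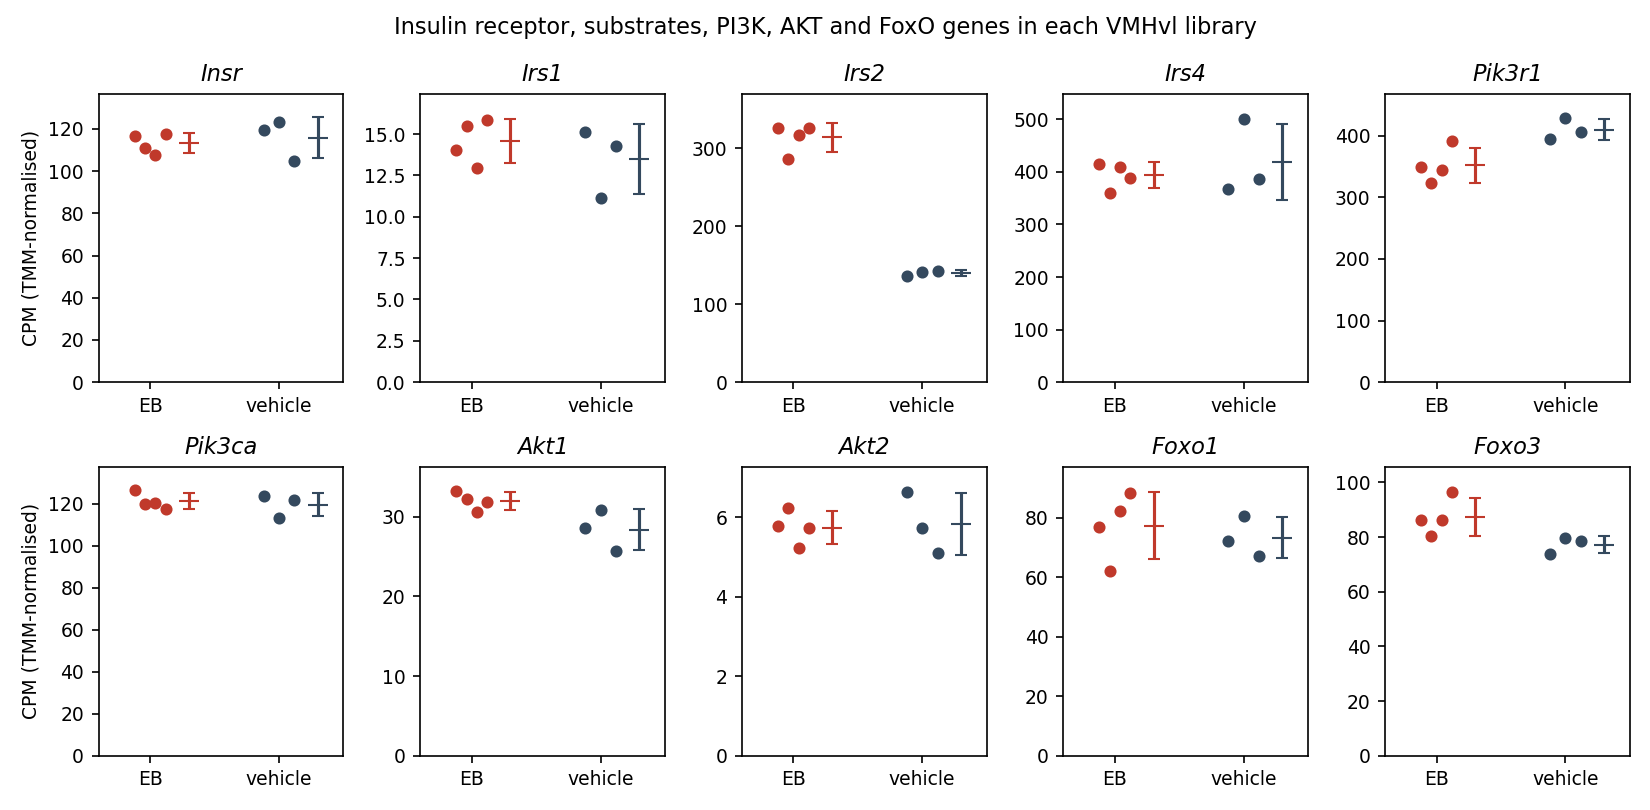
Level of each of the 10 transcripts in CPM (y axis, separate linear scales), with EB left and vehicle right; each point is 1 mouse and bars give the mean and SD. The 4 EB libraries lie between 286.4 and 326.7 CPM for Irs2, above the 3 vehicle libraries at 136.2 to 143.0 CPM, and the groups overlap for 7 of the 10 genes.

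Irs1, the other widely expressed substrate, did not pass the test. It measured 14.0, 15.5, 12.9 and 15.8 CPM with EB, against 15.1, 11.1 and 14.3 CPM with vehicle. The EB and vehicle libraries overlapped, and the log2 fold change was 0.12 ± 0.15 (SE). Its 95% interval of 0.869 to 1.35-fold lies below the interval of Irs2. Irs1 spans 1:82233101-82291416 (minus strand, ENSMUSG00000055980.2), and its counts were 307 to 503 per EB library and 325 to 389 per vehicle library.

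Irs4, an X-linked substrate known for its expression in the hypothalamus, did not pass the test either. It measured 415, 361, 410 and 389 CPM with EB, against 368, 501 and 386 CPM with vehicle. The EB libraries lay within the range of the vehicle libraries apart from EB 2, and vehicle 2 stood highest of all 7. The log2 fold change was −0.09 ± 0.10 (SE), with a 95% interval of 0.816 to 1.09-fold, and it was 0.06 without vehicle 2. Irs4 spans X:141710998-141725263 (minus strand, ENSMUSG00000054667.7). Irs3, a substrate gene of rodents, had 8 counts in EB 2, 1 in vehicle 3 and 0 elsewhere, and was not tested.

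The exons of all 3 substrates overlap genes on the opposite strand, and the use of strand in counting is not given. The overlap covered 2.56% of the Irs2 exons (9530052E02Rik, 161 counts over the 7 libraries), 30.9% of those of Irs1 (Gm9747, 0 counts) and 6.09% of those of Irs4 (Gm15295, 98 counts). Foxo1 overlaps Gm20402 over 7.78% of its exons (0 counts). Reads from these stretches cannot be assigned to 1 strand here, and the other 6 members had no exon overlap.

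Ratios within a library, which do not depend on the scaling between libraries, were compared by exact permutation over the 35 splits of the 7 mice. Irs2 to Irs4 was 0.785, 0.794, 0.774 and 0.841 with EB, against 0.370, 0.282 and 0.371 with vehicle. Irs2 to Irs1 was 23.2, 18.5, 24.6 and 20.6 with EB, against 9.01, 12.7 and 9.99 with vehicle. Irs2 to Insr was 2.80, 2.58, 2.95 and 2.78 with EB, against 1.14, 1.14 and 1.36 with vehicle. In each of the 3 ratios all EB libraries lay above all vehicle libraries. The mean log2 ratios differed by 1.24 for Irs4, 1.05 for Irs1 and 1.20 for Insr as the denominator. Each of the 3 ratios had a two-sided exact p of 0.0286, which is the smallest this design can give, and 0.0286 after adjustment over the 3. The Irs2 rise was therefore measured relative to each of these genes, and the ratios share the same Irs2 counts.

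**Figure D2:**
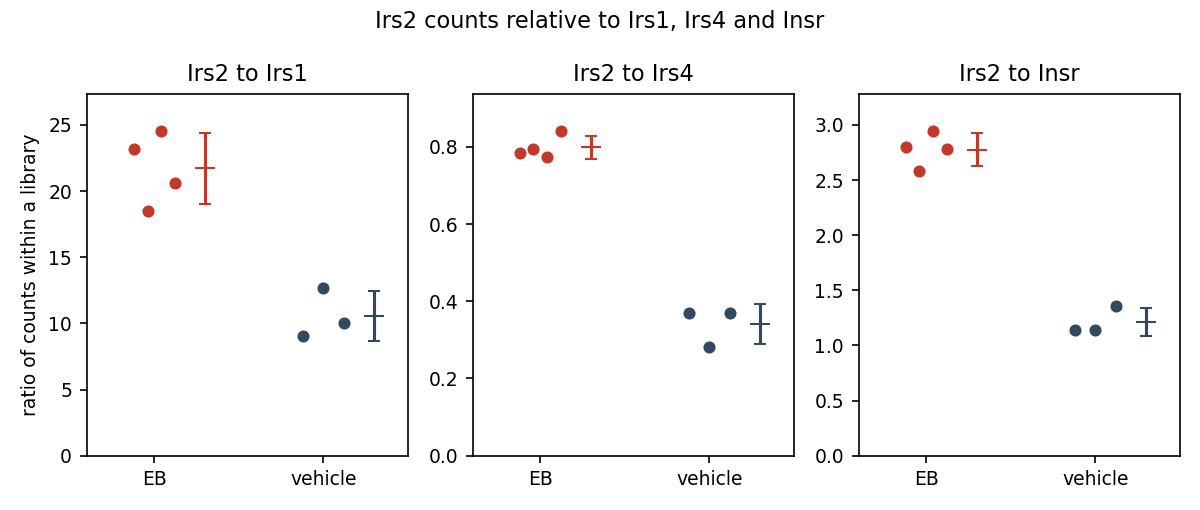
Ratio of Irs2 counts to Irs1, Irs4 and Insr counts within each library (y axis, linear scale from 0), with EB left and vehicle right; points are mice and bars give the mean and SD. All EB libraries lie above all vehicle libraries in each panel, and the mean log2 ratios differ by 1.05 for Irs1, 1.24 for Irs4 and 1.20 for Insr.

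Levels were set between genes as CPM per kilobase of annotated exon, which does not correct for isoform use. Irs4 was the most abundant of the 10 in both groups, at 62.5 ± 3.95 CPM per kilobase with EB and 66.4 ± 11.4 with vehicle. Irs2 reached 49.7 ± 3.00 CPM per kilobase with EB and 22.2 ± 0.556 with vehicle. Pik3r1 stood at 34.9 ± 2.81 CPM per kilobase with EB and 40.6 ± 1.68 with vehicle. Irs2 thus ranked 2 of 10 with EB, above Pik3r1, and 3 of 10 with vehicle, below it. With the length of the longest coding transcript in place of all exons, Irs2 and Pik3r1 stood at 49.7 and 49.4 CPM per kilobase with EB, a difference smaller than the spread between mice.

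The rest of the order was the same in both groups on the exon scale. Pik3ca followed at 13.3 CPM per kilobase with EB and 13.2 with vehicle, then Foxo3 at 11.5 with EB and 10.2 with vehicle. Foxo1 (8.93 with EB and 8.46 with vehicle), Insr (8.23 and 8.43) and Akt1 (7.80 and 6.93) came next. On this scale Foxo1 and Insr did not differ beyond their spread in either group. The libraries of Insr and Akt1 overlapped with EB but not with vehicle. Irs1 at 1.59 with EB and 1.48 with vehicle and Akt2 at 0.805 with EB and 0.817 with vehicle were the lowest. With the longest coding transcript as the length, Insr lay above Foxo1, at 12.1 ± 0.503 against 8.93 ± 1.29 with EB. With vehicle, Insr then stood at 12.4 ± 1.04 and Foxo1 at 8.46 ± 0.793. Akt1 also stood above Foxo1 on that length, and Foxo3 ranked above Insr with EB but below it with vehicle.

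Within the summed level of the substrates, Irs2 made up 43.3, 43.4, 43.0 and 44.9% in the EB libraries, against 26.4, 21.7 and 26.5% in the vehicle libraries. Irs4 made up 54.9 ± 0.944% with EB and 73.5 ± 3.18% with vehicle, and Irs1 1.41% with EB and 1.68% with vehicle. These shares restate the Irs2 change on a scale that sums over the family. The summed level was 119, 104, 117 and 115 CPM per kilobase with EB, against 81.7, 103 and 85.5 with vehicle. The EB libraries were all higher, although EB 2 and vehicle 2 lay close together, and vehicle 2 was the library with the highest Irs4.

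**Figure D3:**
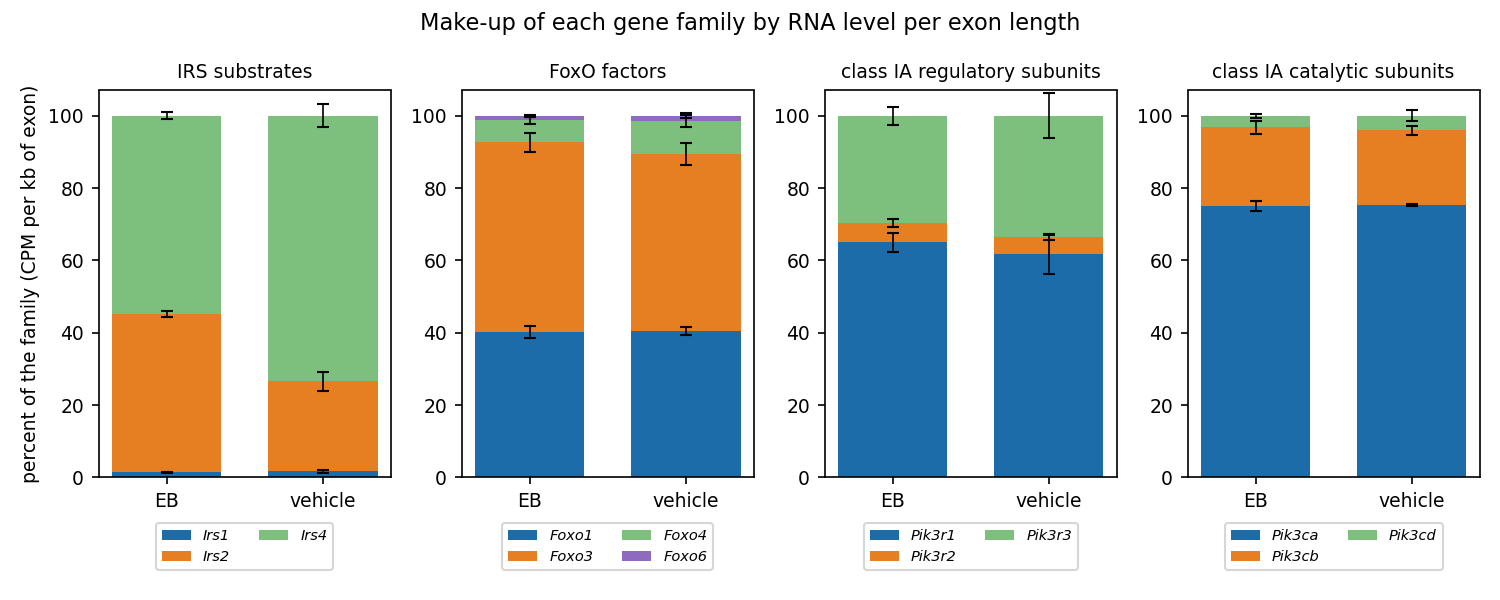
Percent of each family's summed CPM per kilobase contributed by each gene (y axis from 0), for the IRS substrates, FoxO factors and class IA PI3K subunits, with the EB bar left of the vehicle bar; bars stack the group means and error bars give the SD of each gene's share over mice. Irs2 (orange in the left panel) averages 43.7% of the substrates with EB and 24.8% with vehicle.

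Pik3r1 encodes the main regulatory subunits of class IA PI3K, which dock on phosphorylated substrates. It measured 348, 323, 344 and 390 CPM with EB, against 395, 428 and 405 CPM with vehicle. All EB libraries lay below all vehicle libraries, with EB 4 close to vehicle 1, as did 3.99% of all tested genes. The means were 351 ± 28.3 CPM with EB (SD, n = 4) and 410 ± 17.0 CPM with vehicle (SD, n = 3). The log2 fold change was −0.22 ± 0.07 (SE), with a 95% interval of 0.775 to 0.951-fold. Its unadjusted p was 0.00645 and its adjusted p from edgeR 0.232, so it was not called. Pik3r1 spans 13:101680563-101768217 on the minus strand.

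Pik3ca encodes the catalytic subunit p110-alpha. It measured 126.6, 120.0, 120.3 and 117.5 CPM with EB, against 123.6, 113.2 and 122.0 CPM with vehicle. The groups overlapped almost fully, and the 95% interval of the fold change was 0.914 to 1.12. Pik3ca made up 75.1% of the class IA catalytic transcripts per length with EB and 75.2% with vehicle, beside Pik3cb and Pik3cd.

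Akt1 and Akt2 encode AKT kinases, of which Akt2 is the one tied most closely to insulin action in liver and muscle. Akt1 measured 33.2, 32.2, 30.5 and 31.9 CPM with EB, against 28.6, 30.8 and 25.8 CPM with vehicle. EB 3 lay below vehicle 2, and the log2 fold change of 0.17 ± 0.10 (SE) did not pass the test, with a 95% interval of 0.967 to 1.31-fold. Akt2 measured 5.78, 6.22, 5.22 and 5.72 CPM with EB, against 6.65, 5.73 and 5.11 CPM with vehicle. The groups overlapped, and its 95% interval of 0.746 to 1.30-fold was among the widest of the 10.

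Foxo1 encodes a FoxO factor that AKT restrains and that is known to affect energy expenditure through VMH neurons in mice. It measured 77.1, 62.1, 82.3 and 88.2 CPM with EB, against 72.3, 80.6 and 67.0 CPM with vehicle. EB 2 was the lowest of all 7 libraries and EB 4 the highest, and the 95% interval of the fold change was 0.892 to 1.25. Foxo3, its close relative, measured 86.2, 80.2, 86.3 and 96.7 CPM with EB, against 73.7, 79.6 and 78.5 CPM with vehicle. All EB libraries lay above all vehicle libraries, by a small margin between EB 2 and vehicle 2, as did 5.11% of all tested genes. The log2 fold change was 0.18 ± 0.08 (SE), with an unadjusted p of 0.0496 and an adjusted p from edgeR of 0.551, so Foxo3 was not called.

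**Figure D4:**
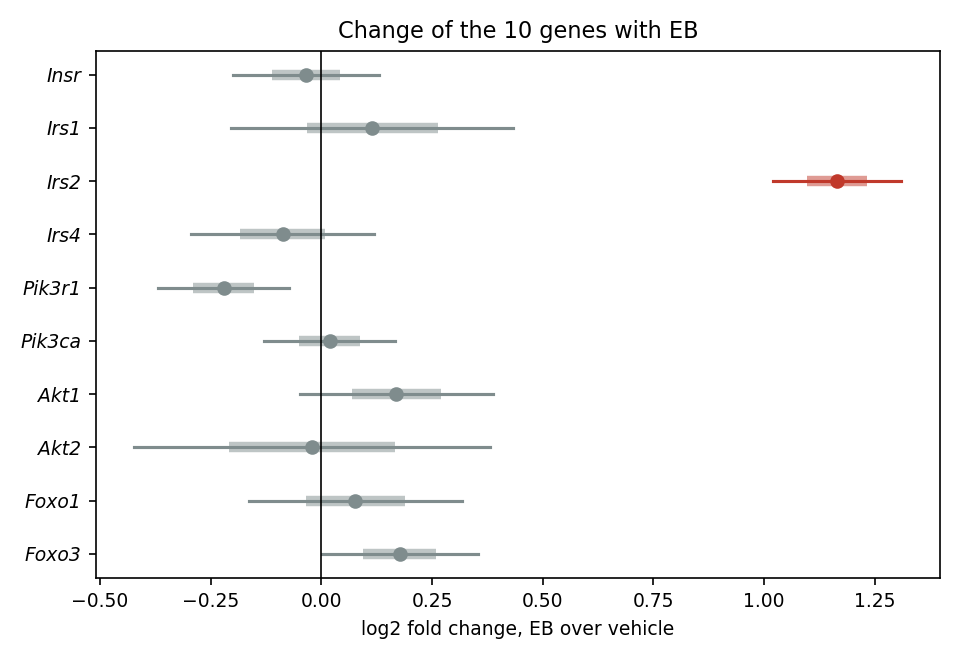
Log2 fold change of EB over vehicle for the 10 transcripts (x axis), ordered by role; thick bars give the SE and thin lines the 95% interval, and red marks the called gene. Irs2 stands at 1.16, and the values of the other 9 run from −0.22 to 0.18.

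The 95% intervals of the 9 uncalled transcripts did not reach the interval of Irs2. Their upper bounds ran up to 1.35-fold (Irs1) and the lower bounds down to 0.746-fold (Akt2). The width of the interval differed by gene, and changes within a gene's own interval could not be resolved. The intervals of Pik3r1 (0.775 to 0.951-fold) and Foxo3 (1.0002 to 1.28-fold) left out an unchanged level, although neither gene passed after adjustment.

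The wider pathway was read from 7 lists of 123 genes, of which 114 were tested. Of these, 1 was called higher and 1 lower, and the remaining 112 did not pass, against 0.952% of all tested genes called. At an unadjusted p under 0.05, 17 of the 114 passed, against 9.04% of all tested genes. The lists too were chosen with earlier results of these data known, so counts within them are descriptive. The median log2 change over the 114 was −0.01, the same to 2 decimals as for all tested genes.

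Both called genes belonged to the list of FoxO target genes, of which 22 of 26 were tested. Gadd45a, a growth arrest and DNA damage gene induced by FoxO factors and by other stress routes, measured 22.0, 15.6, 20.9 and 21.9 CPM with EB, against 3.50, 2.28 and 2.33 CPM with vehicle. All EB libraries lay far above all vehicle libraries, and the log2 fold change was 2.89 ± 0.21 (SE) with an adjusted p of 6.86e-06 from edgeR. Cited2, a transcriptional coregulator, measured 24.4, 31.5, 28.0 and 34.6 CPM with EB, against 44.9, 46.5 and 46.5 CPM with vehicle. All EB libraries lay below all vehicle libraries, and the log2 fold change was −0.64 ± 0.12 (SE) with an adjusted p of 0.0149 from edgeR. That call was lost with library totals as the only scaling (adjusted p 0.140, edgeR), without EB 3 (0.0503) and without vehicle 3 (0.0809). The 2 genes moved in opposite directions. Of the 22, 7 passed at an unadjusted p under 0.05, against 9.04% of all tested genes, and 8 had positive and 14 negative log2 changes, with a median of −0.04. The list was not split by whether FoxO factors induce or repress a gene. It shares Agrp and Pomc with the list of arcuate markers, and Pomc was among the 7. Irs2, itself described as a FoxO target in liver, was counted among the members and not in this list.

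The list of receptor-proximal adaptors and inhibitors held no called gene among 20 tested, with 2 at an unadjusted p under 0.05 and a median log2 change of −0.03. Its smallest p-values were those of Grb14, an adaptor that inhibits the receptor (log2 −0.38, adjusted p 0.397 in edgeR), and Ptpn1, the phosphatase PTP1B (0.38, adjusted p 0.536). Among 16 PI3K subunits and PIP3 phosphatases none was called and 3 passed unadjusted, with a median of −0.01. Pik3r3, a further regulatory subunit, measured 88.4, 75.4, 94.0 and 79.9 CPM with EB, against 96.2, 166 and 98.7 CPM with vehicle. All EB libraries lay below all vehicle libraries, vehicle 2 stood far above the rest, and the log2 change was −0.51 ± 0.19 (SE; adjusted p 0.431, edgeR). Inpp4a, a phosphatase of the PI3K product series, had a log2 change of 0.18 (adjusted p 0.342).

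Among 14 AKT regulators and substrates edgeR called none, with 2 at an unadjusted p under 0.05 and a median log2 change of −0.06. Mdm2, an AKT substrate that restrains p53, averaged 116.9 ± 0.836 CPM with EB and 98.6 ± 3.46 CPM with vehicle. Its log2 change of 0.25 ± 0.07 (SE) had an adjusted p of 0.153 in edgeR and 0.0174 in DESeq2. Sgk3, a kinase related to AKT, had a log2 change of −0.40 (adjusted p 0.441, edgeR). Among 15 genes of the mTOR complexes and TSC none was called and 1 passed unadjusted. Of these 15, 13 had positive log2 changes, with a median of 0.05. Eif4ebp2, a translation repressor that mTOR phosphorylates, averaged 15.8 ± 3.01 CPM with EB and 10.9 ± 1.86 CPM with vehicle (adjusted p 0.277, edgeR). Mtor itself averaged 150 ± 8.64 CPM with EB and 135 ± 3.89 CPM with vehicle (adjusted p 0.556, edgeR).

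Among 14 further FoxO family genes and regulators none was called and none passed unadjusted, with a median log2 change of −0.01. The smallest p-values there belonged to Sirt1, a deacetylase of FoxO proteins (log2 0.20), and Foxo4 (−0.49). Among 13 genes of glucose uptake and use none was called and 2 passed unadjusted. Of these 13, 3 had positive and 10 negative log2 changes, with a median of −0.11. They included Pfkfb2, which makes an activator of glycolysis (log2 −0.35), and Slc2a3, the neuronal glucose transporter GLUT3 (−0.16). In the 6 lists without a call by edgeR, limma-voom called no gene and DESeq2 called Mdm2 alone.

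**Figure D5:**
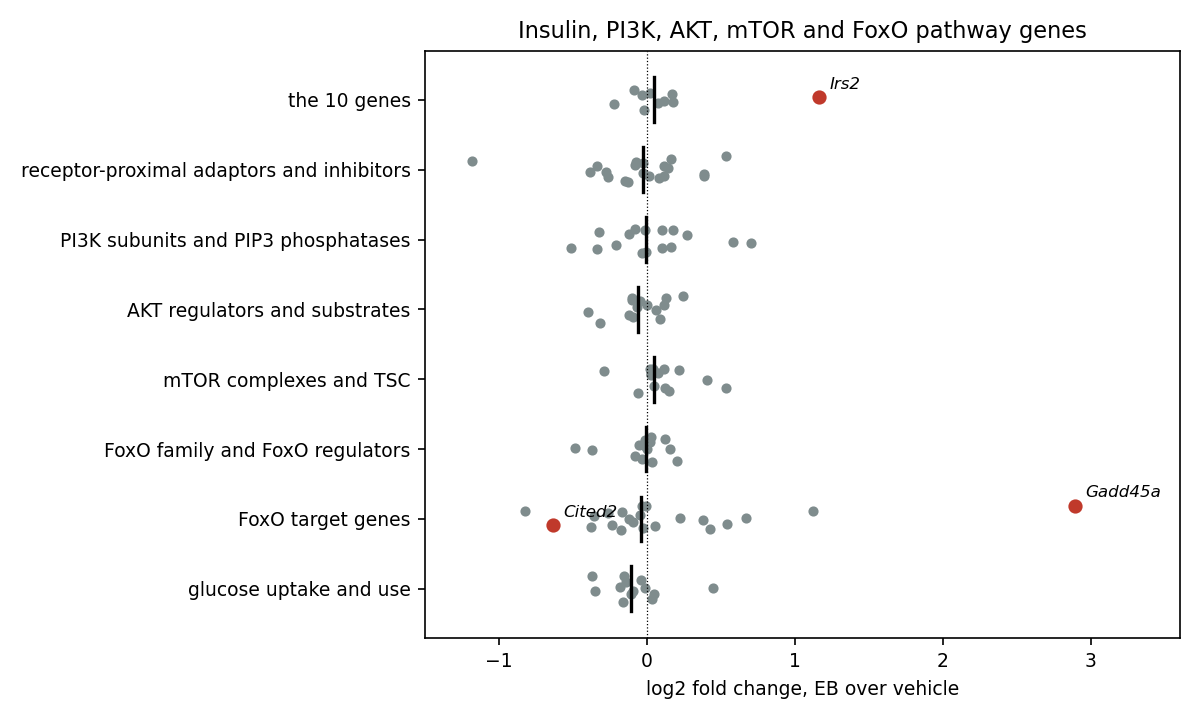
Log2 fold change of EB over vehicle (x axis) for the 10 genes and for the tested genes of each of the 7 pathway lists, 1 point per gene, with the median of each list as a line and called genes in red. Irs2 at 1.16, Gadd45a at 2.89 and Cited2 at −0.64 are the called genes, and the medians lie between −0.11 and 0.05.

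The 5 genes whose log2 CPM followed Irs2 most closely over the 7 libraries were Zbtb42, Dhx57, Ago3, Nt5dc3 and Pgr, among 12985 genes compared. Those 12985 had a mean of at least 1 CPM, and genes with Gm, Rik, LOC or BC symbols had been left out. Pearson's r with Irs2 was 0.999 for Zbtb42, 0.997 for Dhx57, 0.994 for Ago3, 0.991 for Nt5dc3 and 0.989 for Pgr. The 7 points fall into the EB and vehicle groups, so these values describe mainly a shared difference between groups. Pgr, the progesterone receptor and a classic estrogen-induced gene, averaged 207 ± 17.6 CPM with EB and 82.2 ± 6.70 CPM with vehicle, a log2 change of 1.34 ± 0.09 (SE). Ago3, an Argonaute protein of small RNA silencing, averaged 275 ± 18.2 CPM with EB and 173 ± 3.62 CPM with vehicle (log2 0.67). Dhx57, a putative RNA helicase, averaged 96.2 ± 3.37 CPM with EB and 62.7 ± 2.28 CPM with vehicle (log2 0.62). Nt5dc3 averaged 61.4 CPM with EB and 45.8 CPM with vehicle (log2 0.42, adjusted p 0.0205, edgeR), a call lost in 8 of the 20 alternatives. Zbtb42 averaged 15.4 ± 5.24 CPM with EB and 0.163 ± 0.0112 CPM with vehicle (log2 6.52). Its vehicle libraries held 4, 5 and 4 counts, so the size of that change rests on very few vehicle reads. The log2 change of Irs2 was thus larger than those of Dhx57, Ago3 and Nt5dc3 and smaller than those of Pgr and Zbtb42.

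Library totals ran from 22311424 to 33302293 counts with EB and from 21037303 to 30909554 with vehicle. Esr1, the estrogen receptor alpha gene, measured 198, 160, 231 and 180 CPM with EB, against 183, 317 and 169 CPM with vehicle. Of the 8 VMH markers, Nptx2 was called, at 17.7 ± 2.09 CPM with EB and 7.88 ± 1.10 CPM with vehicle (log2 1.17, adjusted p 0.00186, edgeR), and 4 had positive and 4 negative log2 changes. Slc17a6 averaged 633 ± 55.6 CPM with EB and 499.6 ± 61.3 CPM with vehicle (log2 0.34, adjusted p 0.111, edgeR). Adcyap1 averaged 144 ± 18.2 CPM with EB and 170 ± 15.6 CPM with vehicle (log2 −0.24, adjusted p 0.433, edgeR). Tac1 averaged 348 ± 28.9 CPM with EB and 439 ± 126 CPM with vehicle (log2 −0.33). Fezf1 averaged 128 CPM with EB and 140 CPM with vehicle, and Sox14 2.74 ± 1.05 CPM with EB and 1.77 ± 0.843 CPM with vehicle. Nr5a1, the defining marker of the nucleus, was low at 2.52 ± 1.11 CPM with EB and 2.03 ± 1.02 CPM with vehicle. Vehicle 2 held the highest Esr1 level and the highest summed VMH markers of the 7, and was also the highest vehicle library for Irs4, Insr, Pik3r1, Foxo1, Foxo3 and Akt1. Its VMH markers did not all point the same way. Tac1 in vehicle 2 (584 CPM) was the highest of the 7, while Nptx2 (7.09 CPM) and Sox14 (0.823 CPM) were the lowest. Nr5a1 in vehicle 2, at 1.14 CPM, was the lowest of the vehicle libraries. The part of such differences in tissue in the values of these members was not tested. The summed VMH markers ran from 1357 to 1607 CPM with EB and from 1269 to 1767 CPM with vehicle.

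Markers of other cells were read from lists of 7 to 10 genes, and no marker was at 0 in all 7 libraries. Summed endothelial markers ran from 93.3 to 122 CPM with EB and from 109 to 158 CPM with vehicle. Of the 10, 8 had negative log2 changes, and edgeR called none. At an unadjusted p under 0.05 in edgeR, 6 of the 10 passed, against 9.04% of all tested genes. Kdr, among these 6, was higher with EB (log2 0.49). Mural and fibroblast markers ran from 157 to 281 CPM with EB and from 137 to 375 CPM with vehicle, and all 10 had negative log2 changes. Microglial markers ran from 103 to 124 CPM with EB and from 125 to 130 CPM with vehicle, so all EB libraries lay below all vehicle libraries. Of these 8 markers, 6 had negative and 2 positive log2 changes, and edgeR called none. Astrocyte markers ran from 4841 to 6156 CPM with EB and from 5612 to 6275 CPM with vehicle. Slc1a2 made up most of that sum, averaging 4174 CPM with EB and 4437 CPM with vehicle. All 8 astrocyte markers had negative log2 changes, with a median of −0.15, and edgeR called none. Oligodendrocyte markers ran from 776 to 949 CPM with EB and from 899 to 977 CPM with vehicle, and arcuate markers from 88.9 to 149.9 CPM with EB and from 105.7 to 109.0 CPM with vehicle. Tanycyte and ependymal markers ran from 24.2 to 41.6 CPM with EB and from 21.5 to 38.5 CPM with vehicle, and pituitary markers from 2.84 to 29.4 CPM with EB and from 8.30 to 14.8 CPM with vehicle. Each list's mean log2 level was compared by exact permutation, and the lowest p was 0.114 unadjusted (microglial markers) and 0.578 after adjustment over the 9 lists. With 35 splits the smallest possible p is 0.0286, so a list differing alone could not pass that adjustment. The adjusted values therefore cannot decide whether a single list differed. With the endothelial or the mural and fibroblast markers as a covariate, Irs2 was still the 1 member called. The other lists, among them the microglial, astrocyte and VMH markers, were not used as covariates, so their part was not tested.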

How the data were processed

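Per the labels' protocols, 15 ng of total RNA from each of 7 single-mouse VMHvl samples went into a Tecan/NuGEN Trio library. Values are whole-number read counts per gene, not normalised, as the authors deposited them. HISAT2, HTSeq, DESeq2 and the mm10 build are named in the submitters' processing notes; the sources used here do not give versions, annotation or strand setting. Genes were kept by filterByExpr (minimum count 10), TMM-scaled, and compared in edgeR 4.0.16 (quasi-likelihood, robust, no covariate) in R 4.3.3, with Benjamini-Hochberg adjustment over 18387 genes at 0.05. The SE of a log2 change is its size over the square root of F, and the biological coefficient of variation was 22.3%. DESeq2 1.42.0, limma-voom 3.58.1, other scalings and filters, marker covariates and left-out libraries were alternatives. The 9 replicate pairs within groups differed by more than sampling noise (chi-square per degree of freedom 17.0 to 166). Replicate numbers only name mice, in accession order.

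Gene positions and exon lengths came from GENCODE annotation of GRCm38, and promoter windows from RefSeq. Named genes were all members, called genes and the 2 smallest p-values of each pathway list, the 5 genes most like Irs2, and Pgr and Esr1. Irs3, Igf1r and the VMH markers were added after their values were seen. Members, lists and the rule were chosen with earlier results of these data known. Statistics were tested on simulated data, and figures drawn with matplotlib 3.10.9.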

Additional observations from a re-analysis of the deposited data

Results flagged for a closer look

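Gadd45a in EB 2 stood apart from the other EB libraries, at 15.6 CPM against 22.0, 20.9 and 21.9 CPM in EB 1, EB 3 and EB 4. It was the single such library among 33 groups of 4 examined, where chance gives about 1 in 20, and it still lay above every vehicle library, the highest of which was at 3.50 CPM.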

How the results depend on the processing

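No paired analysis was run, because each library came from a different mouse and the replicate numbers only name mice, in accession order. Irs2 was called in all 20 alternatives, with log2 changes of 1.13 to 1.20, and no other member was called in any of them. Pik3r1 stayed between −0.30 and −0.18, with a lowest adjusted p of 0.0847. The sign of an uncalled log2 change turned in at least 1 alternative for Irs1, Irs4, Insr, Pik3ca, Foxo1 and Akt2. Without vehicle 2 it was −0.01 for Irs1, 0.06 for Irs4, 0.01 for Insr and −0.02 for Pik3ca. Over the pathway lists, 2 genes were higher with DESeq2, with no low-count filter and with vehicle 1 and EB 4 both left out, Mdm2 being added in the first case and Bcl6 in the others. With library totals 0 were lower, and with the endothelial covariate 2, Pik3r3 being added. Leaving out 1 library gave 0 to 1 lower, and the 0 came without EB 3 and without vehicle 3, when Cited2 was lost. Over all genes, 137 were higher and 38 lower. DESeq2 gave 234 higher and 125 lower, and no low-count filter 240 and 135. The lower count was 17 with library totals, 106 with the endothelial and 75 with the mural covariate. Leaving out 1 library gave 78 to 122 higher and 20 to 45 lower, with the fewest higher without vehicle 3 and the fewest lower without EB 1. The cause of these shifts was not tested. The log2 ratio differences without 1 library were 0.94 to 1.19 for Irs2 to Irs1, 1.11 to 1.31 for Irs4 and 1.15 to 1.28 for Insr. There the smaller number of splits cannot reach 0.05. The library-total scaling moved the median of all genes by less than 0.1. With 7 mice, changes within the printed intervals cannot be resolved.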

Other observations

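Besides the 3 substrates, 10 genes held an E-box followed within 10 bases by TGTTTT in a RefSeq promoter window, and 4 of them were tested. None of the 4 was called by edgeR. Pcbp1, an RNA-binding protein, averaged 47.7 ± 2.83 CPM with EB and 47.6 ± 2.47 CPM with vehicle. Klf11, a zinc-finger transcription factor, averaged 10.2 ± 1.36 CPM with EB and 10.5 ± 2.81 CPM with vehicle. Rexo2, an oligoribonuclease, averaged 31.9 ± 2.44 CPM with EB and 32.0 ± 4.48 CPM with vehicle. Pyroxd1, an oxidoreductase, averaged 9.03 ± 0.625 CPM with EB and 7.14 ± 1.13 CPM with vehicle (adjusted p 0.585, edgeR). Its EB libraries all lay above all vehicle libraries, as did those of 5.11% of all tested genes. Irs2 was thus the 1 called gene of the 7 tested with this arrangement of letters, against 0.952% of all tested genes called. The arrangement was taken from the substrates' own windows after these had been read. Irs2 was therefore among the 7 in advance, and the count tests nothing.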
